A study of Antirrhinum majus with 21 samples.

Results

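In 150 genes of the snapdragon *Antirrhinum majus*, corolla transcript levels in all 3 magenta plants with the *pseudomajus* alleles (ROSpse_elpse) lay below those of the 18 other plants. The genes were picked from these levels. Estimated reads were summed over the transcripts of a gene and scaled with TMM factors to CPM, counts per 1000000 reads of the library, and a gene was eligible if its 3 ROSpse_elpse libraries were all below the other 18 and the 18 averaged at least 1 CPM. Eligible genes were ranked by the gap, which is the lowest mean of log2(CPM + 0.5) among the 6 other genotypes minus the ROSpse_elpse mean, and the top 150 were kept. Genes placed on ros_assembly or on scaffold1195, 460, 808, 1088 or 383 were left out. Of 37234 genes in all, 20824 passed the level and placement conditions, 213 were eligible and 150 are described here as members.

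ROSEA (ROS) and ELUTA (EL) are linked flower colour loci of snapdragon. ROS encodes MYB transcription factors that switch on the genes of anthocyanin synthesis, and these pigments give the corolla its magenta colour. EL, in its dominant form, restricts where in the corolla that pigment is made. The wild *pseudomajus* is magenta and the wild *striatum* is yellow, and these loci are among those that differ between them. The files do not pair gene IDs with names, so members are given by ID with no role, the pigment and petal gene lists could not be matched, and the corolla label was not checked against markers.

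Every library came from the corolla of a single bud, 5 to 10 mm long and at stage 12 to 13, of a plant grown outdoors beside the others. ROSpse_elpse plants carried the dominant ROS and the recessive el of *pseudomajus* and were magenta. ROSji7_elji7 plants, also magenta, carried the dominant ROS and recessive el of the stock line JI7. ROSpse_ELstr and ROSji7_ELstr plants had the eluta phenotype and joined those dominant ROS alleles to the dominant EL of *striatum*. rosrec_elpse plants were pale and carried the recessive el of *pseudomajus* with a recombinant ros, of *striatum* upstream and *pseudomajus* downstream. The white genotypes were rosstr_ELstr, with the recessive ros and dominant EL of *striatum*, and rosdor_eldor, with both recessive alleles of the stock line rosea-dorsea. Each genotype had 3 plants, and the labels give 1 allele per locus and no zygosity.

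Library totals ran from 8926585 to 41860890 estimated reads, and those of ROSpse_elpse from 23051496 to 31579550. All 3 ROSpse_elpse plants came from family A181, and the only other plant of that family was rosdor_eldor replicate 1, which was also the shallowest library. The other genotypes apart from rosdor_eldor also had 1 family each. These were A183 for ROSji7_elji7, A172 for ROSji7_ELstr, A174 for ROSpse_ELstr, A182 for rosstr_ELstr and A177 for rosrec_elpse. The rosdor_eldor plants came from A181, A174 and A182. By library number, ROSpse_elpse replicate 1 belonged to a low series (below 3000, 5 libraries) and replicates 2 and 3 to the middle series (13 libraries); the remaining 3 libraries had numbers above 8000. Over all 20824 genes, the library farthest from the ROSpse_elpse mean was ROSji7_elji7 replicate 1, at a median absolute log2 distance of 0.51, and the nearest was ROSpse_ELstr replicate 3, at 0.24.

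The 213 eligible genes were 1.02% of those that could have qualified. Counted in the same way, the share of genes with all 3 libraries below the 18 others was 1.95% in rosrec_elpse (408 genes), 0.321% in rosstr_ELstr (67), 0.277% in ROSji7_elji7 (57), 0.225% in ROSpse_ELstr (47), 0.201% in ROSji7_ELstr (42) and 0.0288% in rosdor_eldor (6). Genes with all 3 ROSpse_elpse libraries above the 18 others numbered 257, or 1.23%. The ROSpse_elpse count thus lay second among the 7 genotypes, below rosrec_elpse, and it was smaller than the count of genes highest in the same plants. Only rosdor_eldor was drawn from several families, so genotype and family cannot be told apart in these counts. In these bulk corollas, fewer cells of a type and less RNA per cell cannot be told apart.

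Most members were modestly lower. The gap to the next lowest genotype ran over log2 differences of 0.31 to 2.13, with a median of 0.54 and quartiles of 0.40 and 0.74; it was at least 1 in 14 members and below 0.5 in 68. The mean of the 18 other libraries was 1.30 to 23.7 times the ROSpse_elpse mean, with a median of 1.82 times. It was at least 2 times as high in 57 members, at least 3 times in 20 and at least 10 times in 4. The closest single library often sat just above: the lowest of the 18 exceeded the highest ROSpse_elpse library by a median of 0.12 on the log2 scale, by less than 0.1 in 62 members and by 0.5 or more in only 8. Since members were chosen by these values, they are described and not tested.

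**Figure D1:**
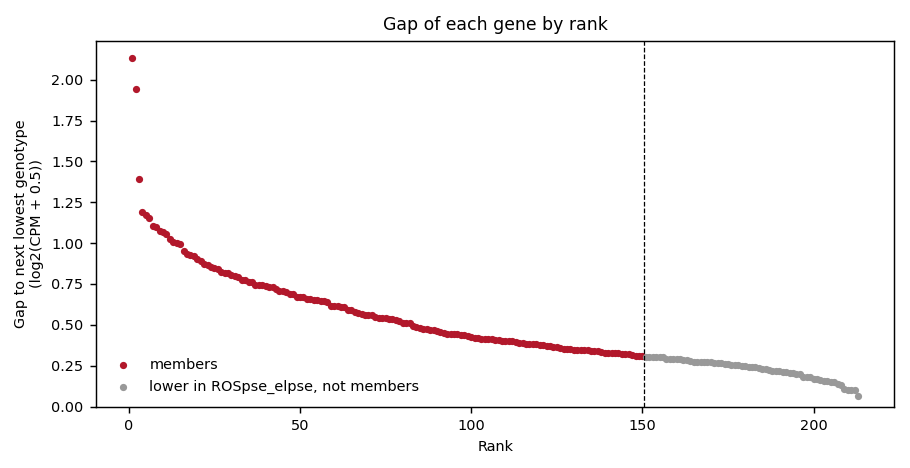
Gap of each eligible gene, in log2(CPM + 0.5), between the next lowest genotype and ROSpse_elpse, by rank. Red points are the 150 members, grey points the 63 eligible genes ranked below them, and the dashed line marks the end of the list; the gap falls steeply over the first few genes, to 1.19 at rank 4, and then smoothly through 0.31 at rank 150.

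There was no break at the end of the list. Ranks 148, 149 and 150 were AnMG0005317100, AnMG0004795700 and AnMG0000259400, with gaps of 0.31, 0.31 and 0.31. Just outside, AnMG0003750100, AnMG0004220400 and AnMG0005216400 had gaps of 0.31, 0.30 and 0.30. AnMG0005317100 had 22.9, 20.7 and 20.3 CPM in ROSpse_elpse and 24.8 to 44.4 CPM, median 30.6, in the 18 other libraries. AnMG0003750100 had 35.3, 29.8 and 38.5 CPM in ROSpse_elpse and 40.1 to 57.2 CPM, median 44.0, in the others. On both sides of the limit the ROSpse_elpse plants sat only slightly below the lowest of the others.

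The first-ranked gene was AnMG0003492000, placed on scaffold185 at 1301508 to 1304539 on the plus strand, with a gap of 2.13. It had 0.234, 0.293 and 0.434 CPM in the ROSpse_elpse plants, against 0.506 to 16.2 CPM, median 7.27, in the 18 others. The ROSpse_elpse mean was 0.320 ± 0.103 CPM (SD, n = 3), and the mean of the others was 23.7 times as high. The lowest of the others was rosdor_eldor replicate 1 at 0.506 CPM, while replicates 2 and 3 of that genotype had 5.53 and 7.09 CPM. The highest genotype was ROSji7_ELstr, with 13.1, 9.83 and 12.5 CPM. The ROSpse_elpse values rest on 5, 7 and 14 reads, and the gene overlaps another on the opposite strand; whether the authors' counting used strand is not given in the sources used here.

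AnMG0207145010, on scaffold643 at 59516 to 60817 on the plus strand, was second with a gap of 1.94. Its level was 0.141, 0.209 and 0.372 CPM in ROSpse_elpse, from 3, 5 and 12 reads, against 0.885 to 12.2 CPM, median 5.14, in the others. The lowest of the others exceeded the highest ROSpse_elpse library by 1.25 on the log2 scale, the widest such margin among the 150. Here too the lowest other library was rosdor_eldor replicate 1. The first and the second gene also shared their low libraries within genotypes: ROSpse_ELstr replicate 3 had 1.13 CPM in each, against 2.58 to 9.03 CPM in replicates 1 and 2 of that genotype, and rosrec_elpse replicate 1 had 2.85 and 2.03 CPM, against 9.37 to 14.1 CPM in its replicates 2 and 3.

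AnMG0807615700, at rank 3, had 7.59, 10.9 and 15.3 CPM in ROSpse_elpse and 16.0 to 61.5 CPM, median 36.0, in the others. ROSpse_elpse replicate 3 lay just below ROSpse_ELstr replicate 1. AnMG0001377700 followed, with 13.5, 9.53 and 13.2 CPM in ROSpse_elpse and 18.1 to 212 CPM, median 45.0, in the others. Its level varied widely outside ROSpse_elpse, and rosstr_ELstr alone covered 84.0, 48.4 and 212 CPM. These genes had 3.22 and 4.69 times the ROSpse_elpse mean in the other libraries.

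AnMG0001840200 was more even among the others. It had 9.33, 6.14 and 7.94 CPM in ROSpse_elpse and 13.0 to 29.2 CPM, median 23.2, in the 18 others, and the 6 other genotype means differed by no more than 0.43 on the log2 scale. AnMG0003513000 had 13.5, 8.57 and 7.35 CPM in ROSpse_elpse and 13.6 to 45.8 CPM, median 27.0, in the others. In that gene ROSpse_elpse replicate 1 and ROSpse_ELstr replicate 3 almost touched. AnMG0708096300 had 5.39, 4.43 and 10.8 CPM in ROSpse_elpse and 12.5 to 23.5 CPM, median 18.5, in the others. Of the ROSpse_elpse plants, replicate 3 was the highest and came close to the lowest white plant, rosstr_ELstr replicate 1.

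The remaining 5 of the 12 highest-ranked genes had gaps of 1.03 to 1.10. AnMG0005561210 had 1.13, 0.836 and 1.40 CPM in ROSpse_elpse and 1.77 to 6.99 CPM, median 3.66, in the others. AnMG0004769900 had 0.984, 0.460 and 1.09 CPM in ROSpse_elpse and 1.84 to 7.89 CPM, median 3.03, in the others, with the pale rosrec_elpse highest at 7.89, 6.48 and 5.90 CPM. The other 5 genotypes of AnMG0004769900 averaged 2.29 to 4.84 CPM.

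AnMG0000943500 had 2.39, 2.76 and 3.38 CPM in ROSpse_elpse and 4.01 to 20.0 CPM, median 8.44, in the others. AnMG0000351000 was scarce in ROSpse_elpse, at 0.0469, 0.209 and 0.248 CPM from 1, 5 and 8 reads, and had 0.253 to 7.44 CPM, median 1.68, in the others. Both AnMG0000943500 and AnMG0000351000 were highest in the other magenta genotype, ROSji7_elji7, at 12.3 ± 3.14 and 4.62 ± 2.53 CPM (SD, n = 3). The rule set the place of ROSpse_elpse at the low end. ROSji7_ELstr was not separated from ROSji7_elji7 in either gene (log2 fold change -0.08 and -0.51, edgeR unadjusted p 0.842 and 0.391). AnMG0309344800 had 22.0, 14.9 and 15.8 CPM in ROSpse_elpse and 28.4 to 78.0 CPM, median 43.6, in the others. No ROSpse_elpse value of these 3 genes overlapped the others, as the rule required.

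**Figure D2:**
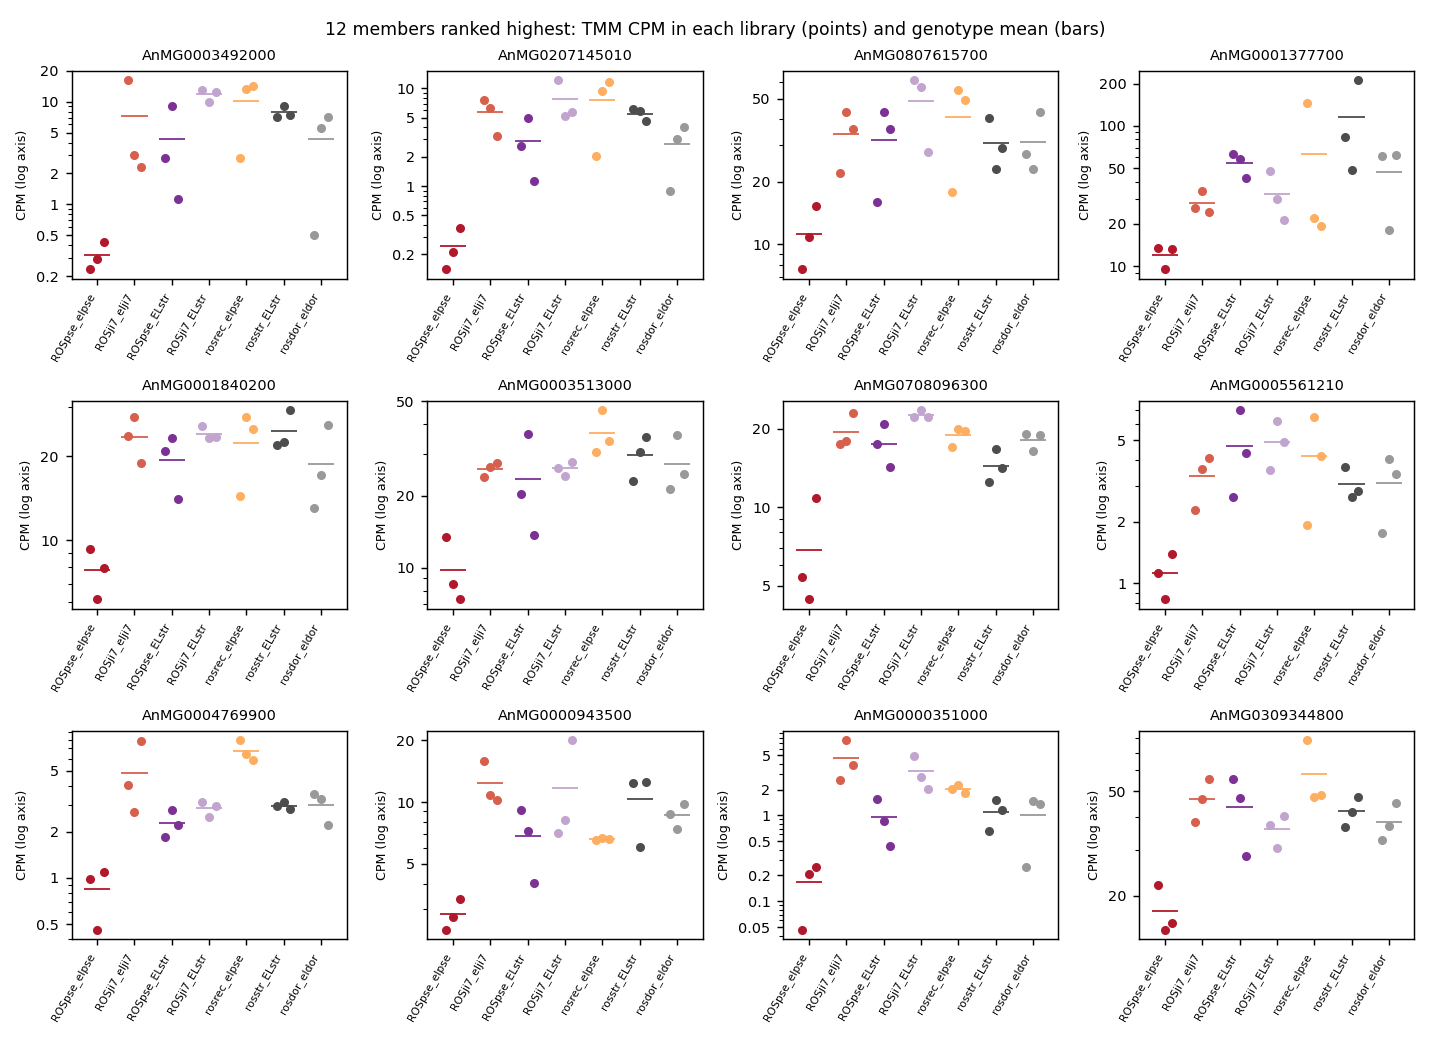
TMM CPM on a log axis in each library (points) and genotype means (horizontal bars) for the 12 members ranked highest. ROSpse_elpse, at the left of each panel, lies below every other point; in AnMG0003492000 and AnMG0000351000 the closest point is rosdor_eldor replicate 1, at 0.506 and 0.253 CPM.

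Some members were abundant. On the length-scaled TPM measure, AnMG0008685400 (scaffold1600, 158276 to 159650, minus strand) was the highest, at 754 ± 111 TPM in ROSpse_elpse (SD, n = 3) and a mean of 1422 TPM in the 18 others. Its level was 155, 146 and 131 CPM in ROSpse_elpse and 164 to 517 CPM, median 274, in the others. AnMG0001881500 (scaffold84, 797429 to 803194, minus strand) averaged 385 ± 24.9 TPM in ROSpse_elpse (SD, n = 3) and 557 TPM in the others. Its highest ROSpse_elpse library had 1095 CPM and its lowest other library, ROSpse_ELstr replicate 3, had 1097 CPM, so the groups almost touched. Over all members, the median of the mean TPM in the 18 others was 25.1, against 15.7 over all 20824 genes.

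AnMG0002964300, on scaffold663 at 698367 to 700826 on the minus strand, had the second highest TPM and the widest contrast among the abundant members. It stood at 247 ± 11.9 TPM in ROSpse_elpse (SD, n = 3) and a mean of 840 TPM in the others. In CPM it had 369, 320 and 315 in ROSpse_elpse. In the other magenta genotype, ROSji7_elji7, it had 390, 543 and 635 CPM.

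The white plants had intermediate levels of AnMG0002964300, at 740, 551 and 882 CPM in rosstr_ELstr and 542, 1161 and 643 CPM in rosdor_eldor. The eluta plants were high, with 1290, 2230 and 1476 CPM in ROSpse_ELstr and 2021, 1458 and 1571 CPM in ROSji7_ELstr. The pale rosrec_elpse plants had 1421, 1511 and 1357 CPM. By genotype mean, the order was thus ROSpse_elpse at 335 CPM, ROSji7_elji7 at 523, rosstr_ELstr at 724, rosdor_eldor at 782, rosrec_elpse at 1429, ROSpse_ELstr at 1666 and ROSji7_ELstr at 1683 CPM. The libraries of ROSji7_elji7, rosstr_ELstr and rosdor_eldor overlapped each other, as did those of the 3 highest genotypes. The rule set the place of ROSpse_elpse. Among the others, no white or ROSji7_elji7 library reached the lowest eluta library, 1290 CPM.

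At the low end, 6 members had fewer than 30 reads over the 3 ROSpse_elpse libraries together, and none had 0 reads in all 3. AnMG0003508800, chosen after its values were seen, had 2 reads in each ROSpse_elpse library, or 0.0938, 0.0836 and 0.0620 CPM, against 0.158 to 4.22 CPM in the others. AnMG0001117010, also chosen after its values were seen, was the only member with no read in a ROSpse_elpse library, at 0.281, 0 and 0.372 CPM, against 0.396 to 5.76 CPM in the others. For such genes a single read moves the order of the libraries.

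Across members, the ROSpse_elpse plants stayed together. The median SD of log2(CPM + 0.5) among the 3 ROSpse_elpse libraries was 0.16 for members and 0.25 over all 20824 genes, and the rule favours a small spread. Replicate 1 was the lowest of the 3 in 40 members (26.7%, against 39.8% of all genes), replicate 2 in 59 (39.3%, against 28.5%) and replicate 3 in 51 (34%, against 31.7%). Replicate 1, of the low library series, was thus the lowest less often among members than over all genes. The median over members was 16.5 CPM in ROSpse_elpse and lay between 26.2 CPM in ROSpse_ELstr and 29.4 CPM in rosstr_ELstr among the other genotypes.

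The rule ranks by the lowest of the other genotypes and requires all 18 libraries to lie above ROSpse_elpse, so it favours genes with a small spread among the others, and the values that follow only describe the list. The 6 other genotype means spanned a median of 0.50 on the log2 scale, against 0.65 over all genes, and spanned less than 1 in 131 members (87.3%, against 73.9% of all genes). The widest span was 2.16, in AnMG0807614900, which had 0.563, 1.76 and 1.43 CPM in ROSpse_elpse, averaged 2.94 CPM in ROSji7_ELstr and 17.0 CPM in ROSpse_ELstr, and was named as the neighbour of AnMG0807615700. At least a 2-fold distance from the ROSpse_elpse mean was reached by 69 members in rosrec_elpse, 60 in ROSji7_ELstr, 58 in ROSpse_ELstr, 51 in ROSji7_elji7, 49 in rosstr_ELstr and 48 in rosdor_eldor.

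**Figure D3:**
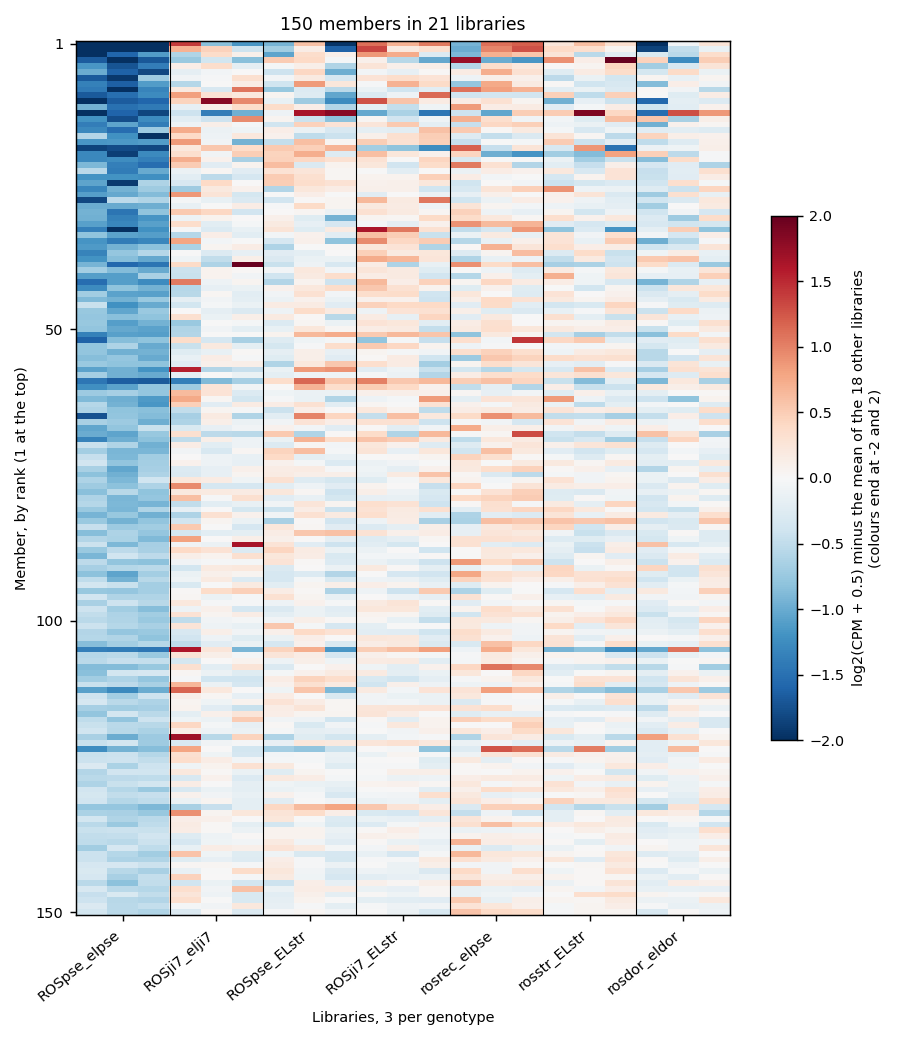
log2(CPM + 0.5) of the 150 members (rows, by rank) in the 21 libraries (columns, 3 per genotype, in order of replicate), each minus the mean of the 18 other libraries. Blue is lower and red higher, with colours ending at -2 and 2; the 3 ROSpse_elpse columns are blue throughout, and rosdor_eldor replicate 1 is pale blue in many rows, with a median of 0.50 above ROSpse_elpse where its replicates 2 and 3 have 0.69 and 0.77.

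The ranking used the genotype nearest to ROSpse_elpse, so which one that was is a description of the members chosen. It was rosdor_eldor in 34 members (22.7%), against 10.8% of all genes in which it was the lowest of the 6. ROSji7_elji7 was next lowest in 31 members (20.7%, against 20.1%), ROSpse_ELstr in 30 (20%, against 16.1%), rosstr_ELstr in 20 (13.3%, against 14.9%), ROSji7_ELstr in 18 (12%, against 13.1%) and rosrec_elpse in 17 (11.3%, against 25%). At the top of the order, rosrec_elpse was the highest genotype in 55 members (36.7%, against 24.1% of all genes) and rosdor_eldor in 1 (0.667%, against 9.29%). The pale rosrec_elpse shares the el source and the downstream source of ros with ROSpse_elpse. It differs in the upstream source of ros and in plant family, and an effect of any of these was not tested.

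Within rosdor_eldor, replicate 1 was most often the low library. It was the lowest of the 18 in 34 members (22.7%, against 12.7% of all genes), while replicates 2 and 3 were the lowest in 5 and 8. Its median distance above ROSpse_elpse over members was 0.50 on the log2 scale, the smallest of the 18 libraries, which otherwise ran between 0.65 and 0.96. Replicate 1 is the library that shares family A181 with ROSpse_elpse, and it also had the fewest reads and a low library number; these cannot be told apart with 1 plant. ROSpse_ELstr replicate 3 was the lowest of the 18 in 22 members (14.7%, against 3.17% of all genes), and ROSji7_ELstr replicate 3 in 10 (6.67%, against 3.61%). ROSpse_ELstr replicate 3 belongs to family A174 and the middle series, and had 26452576 reads.

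**Figure D4:**
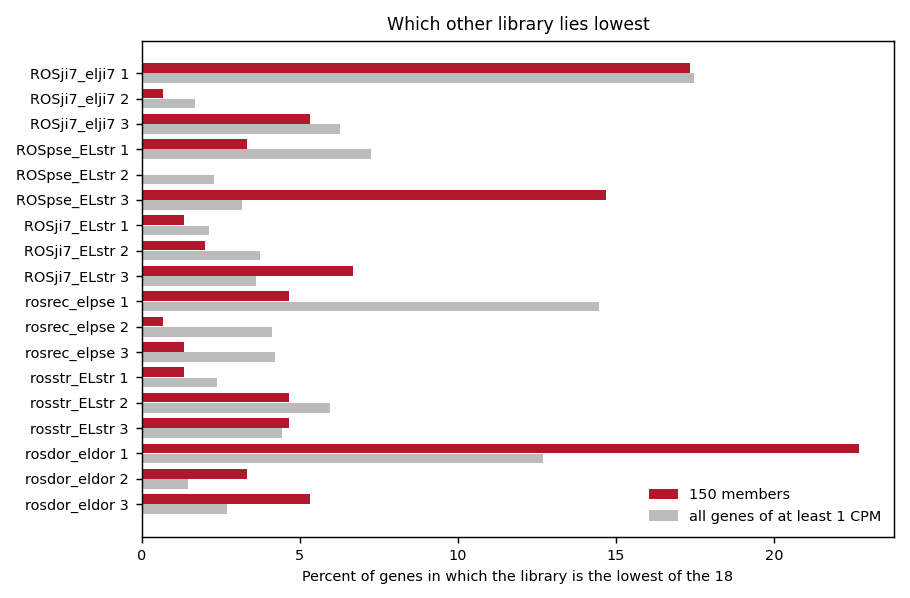
Share of genes in which each of the 18 other libraries is the lowest, for the 150 members (red) and all 20824 genes of at least 1 CPM (grey). rosdor_eldor replicate 1 reaches 22.7% of members against 12.7% of all genes, ROSpse_ELstr replicate 3 reaches 14.7% against 3.17%, and rosrec_elpse replicate 1 falls to 4.67% of members against 14.4% of all genes.

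The list depended on single libraries. Rebuilt without rosdor_eldor replicate 1, and so without the other A181 plant, 332 genes were eligible and 85 of the 150 members were again in the top 150. Without ROSpse_elpse replicate 1, 895 genes were eligible and 44 members returned; without ROSpse_elpse replicate 3 these were 428 and 64, and without ROSpse_elpse replicate 2 they were 314 and 109. Leaving out any one of the remaining 17 libraries returned 102 to 147 members. On the deposited TPM, which carry no TMM factor, 75 of the 150 still had all 3 ROSpse_elpse libraries below the 18 others.

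Contrasts among the 6 other genotypes compare none of the ROSpse_elpse libraries, so their fold changes describe members between those genotypes. The contrasts are not wholly apart from the rule, which also required each of these libraries to exceed ROSpse_elpse and ranked genes by the lowest genotype. All 21 libraries entered the fit, so the spread behind each SE and p-value includes ROSpse_elpse. The rule favours genes of small spread, so shares of members called or with a small p draw on values the rule used. The fit took the 24674 genes that reached 0.5 CPM in 3 or more libraries, and all 150 members were among these. A member was called at an adjusted p under 0.05 in edgeR's quasi-likelihood test with Benjamini-Hochberg adjustment over all genes. Several contrasts share libraries, and rosdor_eldor is the denominator in 3 of them.

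In 2 of them the genotypes differed in a dominant ROS allele. They also differed in plant family, which these contrasts cannot tell apart from the allele. ROSji7_elji7 and rosdor_eldor differ in the source of el as well. In magenta ROSji7_elji7 against white rosdor_eldor, edgeR called 0 members, where it called 0.223% of all genes (0.0648% higher and 0.158% lower); an unadjusted p under 0.05 was found in 11 members (7.33%, against 10.1% of all genes). DESeq2 called 1 member (0.667%, against 1.25% of all genes), AnMG0000351000. The median log2 fold change was 0.06 in members and 0.03 over all genes, and among members it ranged over -0.04 to 0.14 when 1 library was left out. In ROSpse_ELstr against rosstr_ELstr, both with the *striatum* EL, edgeR again called 0 members, against 0.454% of all genes (0.267% higher and 0.186% lower); 22 had an unadjusted p under 0.05 (14.7%, against 11.5%), and DESeq2 called 5 (3.33%, against 2.92%). With the library series as a term edgeR called 4 (against 0.365% of all genes), all higher at adjusted p of 0.0237 to 0.0327. The median was -0.04 in members and 0.00 over all genes. With plant family as a term it was 0.11 in members, in a fit of 4 genotypes that includes ROSpse_elpse. That fold change then rests on 2 rosdor_eldor plants, replicate 2 of family A174 and replicate 3 of family A182, 1 per family.

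ROSji7_ELstr and ROSji7_elji7 differed in the *striatum* EL allele and in family (A172 and A183), which cannot be told apart. Between them edgeR called 1 member higher and 0 lower in ROSji7_ELstr, or 0.667% of members. Of all genes 0.19% were called (0.0973% higher and 0.0932% lower). An unadjusted p under 0.05 was found for 26 members (17.3%, against 10.7%), and DESeq2 called 2 (1.33%, against 1.8%). The called member was AnMG0002964300, whose values are given above. Its log2 fold change was 1.68 ± 0.29 (SE; edgeR adjusted p 0.0239; higher in 3 of 3 ROSji7_ELstr libraries than in any ROSji7_elji7 library). The call ended without ROSji7_ELstr replicate 1, 2 or 3, at edgeR adjusted p of 0.149, 0.0637 and 0.0595, and without ROSji7_elji7 replicate 1, at 0.101, and over all its alternatives it ran between 2.95e-06 and 0.239; the log2 fold change stayed at 1.50 to 1.84.

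In ROSpse_ELstr against rosstr_ELstr, the log2 fold change of AnMG0002964300 was 1.20 ± 0.29 (SE; edgeR adjusted p 0.0809), which DESeq2 called. In rosrec_elpse against rosdor_eldor it was 0.87 ± 0.28 (SE; edgeR adjusted p 0.106), also called by DESeq2. Between the eluta genotypes, ROSpse_ELstr against ROSji7_ELstr, it was -0.02 ± 0.28 (SE; edgeR adjusted p 1). The gene was therefore called by edgeR in 1 of the 6 contrasts.

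Pale rosrec_elpse against white rosdor_eldor gave the most calls. These genotypes differ in the sources of ros and el and in plant family, which the contrast cannot tell apart. Beyond 1 low-series library each, they also differ in library series. In this contrast edgeR called 7 members higher and 0 lower, or 4.67% of members. Of all genes 3.21% were called (1.78% higher and 1.42% lower). An unadjusted p under 0.05 was found for 30 members (20%, against 18.3%). DESeq2 called 11, all higher (7.33%, against 7.86% of all genes in either direction), and edgeR called 4 once the library series was a term (against 1.13% of all genes). The median log2 fold change was 0.23 in members and -0.02 over all genes, and 116 of the 150 (77.3%, against 48.1% of all genes) had a value above 0. Leaving out 1 library moved the members' median over 0.17 to 0.31. The count of calls was 8 when rosdor_eldor replicate 2 was left out, and lower for every other library left out: 2 for rosdor_eldor replicate 1, 4 for rosdor_eldor replicate 3, and 3, 2 and 2 for rosrec_elpse replicates 1, 2 and 3. Shares of all genes called in these leave-out fits are not given, so the counts describe members alone.

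**Figure D5:**
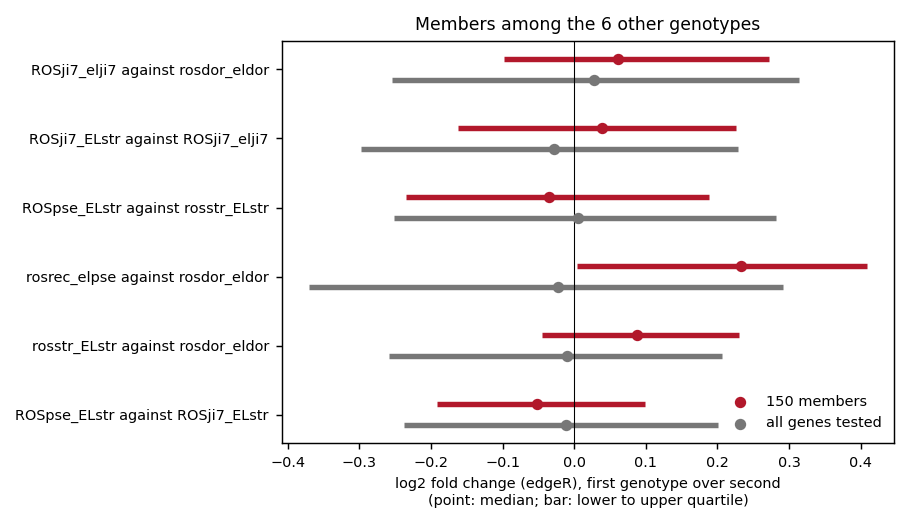
Median (point) and lower to upper quartile (bar) of the edgeR log2 fold change, first genotype over second, for the 150 members (red) and all 24674 genes tested (grey) in 6 contrasts without ROSpse_elpse. In rosrec_elpse against rosdor_eldor the members' median is 0.23 and that of all genes -0.02; in the other contrasts the members' medians lie between -0.05 and 0.09.

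The largest rise among the called members was in AnMG0408582200, on scaffold477 at 91874 to 95732 on the minus strand. It had 7.89, 12.9 and 11.8 CPM in rosrec_elpse and 3.79, 5.75 and 3.39 CPM in rosdor_eldor, with no overlap, and 2.95, 2.97 and 3.26 CPM in ROSpse_elpse. Its log2 fold change was 1.33 ± 0.25 (SE; edgeR adjusted p 0.0108). The call ended without rosrec_elpse replicate 2, at an edgeR adjusted p of 0.0531, with the library series as a term, at 0.0758, and in the fit of only these genotypes, at 0.247, and over all its alternatives it ran between 1.20e-05 and 0.247. The gene overlaps another on the same strand.

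AnMG0607582800, on scaffold444 at 324072 to 326535 on the plus strand, was second. It had 19.2, 16.0 and 16.5 CPM in rosrec_elpse and 7.96, 7.50 and 7.80 CPM in rosdor_eldor, and 4.50, 3.80 and 4.50 CPM in ROSpse_elpse. Its log2 fold change was 1.15 ± 0.19 (SE; edgeR adjusted p 0.00503; 1.09e-07 to 0.209 over its alternatives), and among the alternatives run the call ended in 1, the fit of the genotypes compared alone, at 0.209. The rosrec_elpse and rosdor_eldor libraries did not overlap, and the rule set ROSpse_elpse below both. The remaining 4 genotypes lay at 7.85 to 13.1 CPM. The other 5 called members rose by 0.58 to 0.79 on the log2 scale (edgeR adjusted p 0.0217 to 0.0428), among them AnMG0000259400, the last of the list by rank. Each of these 5 calls ended in 5 to 8 of 11 alternatives, which gave adjusted p of up to 0.264 to 0.313.

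The white genotypes and the eluta genotypes were also set against each other. In rosstr_ELstr against rosdor_eldor, edgeR called 0 members, against 0.077% of all genes (0.0486% higher and 0.0284% lower); 9 members had an unadjusted p under 0.05 (6%, against 6.77%), and DESeq2 called 0 (against 0.483%). The members' median was 0.09, against -0.01 over all genes, with 67.3% above 0, against 48.7%. With plant family as a term the members' median was -0.00, but that contrast then rests on 1 rosdor_eldor plant, replicate 3 of family A182. In ROSpse_ELstr against ROSji7_ELstr, edgeR called 0 members, against 0.608% of all genes (0.405% higher and 0.203% lower); 11 had an unadjusted p under 0.05 (7.33%, against 8.51%), and DESeq2 called 4 (2.67%, against 2.27%). With the library series as a term edgeR called 1, AnMG0807614900 (against 0.936% of all genes). The members' median was -0.05, against -0.01, with 40% above 0, against 48.1%. The members' median was above that of all genes in all 3 contrasts with rosdor_eldor as denominator, which share those libraries.

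At the level of transcripts, 102 members had a single transcript in the files (68%, against 64.0% of all genes). The other 48 had 118 transcripts, of which 95 reached 1 CPM in the mean of the 18 others. Of these, 88 had a lower mean in ROSpse_elpse and 36 lay below all 18. The rule set the sum of a gene's transcripts low, so counts of low transcripts draw on values the rule used. Such counts were not made over all genes. In 36 members at least 2 transcripts reached 1 CPM; in 27 of these exactly 1 transcript lay below all 18 others, in 9 none did, and in 0 did all of them. AnMG0001377700 is an example: its transcript T01 had 9.44 ± 1.83 CPM in ROSpse_elpse (SD, n = 3) and a mean of 48.5 CPM in the others and was below all 18, and T02, at 1.89 ± 1.34 CPM (SD, n = 3) and 5.90 CPM, was not. In AnMG0005561210 neither of 2 transcripts was separated on its own, though their sum was. Salmon divides reads among transcripts of a gene by estimate, which adds error to these values.

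The members were somewhat shorter than other genes, with a median longest transcript of 1389.5 bases, against 1560 over all 20824 genes, in a range of 270 to 4152. The placement of 140 was at 100% identity (93.3%, against 87.3% of all genes), and none was placed on several sequences, against 0.797% of all genes. Another gene overlapped 39 members, on the same strand in 23 and on the opposite strand in 17. The share over all genes was not computed, so these counts only describe the members. Reads of overlapping genes may be shared.

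Members, which are 0.720% of the 20824 genes, lay on 123 sequences, and 108 members were the only one on theirs. The sequences with most were scaffold174, with 6 of 274 genes of at least 1 CPM (2.19%), scaffold751, with 5 of 327 (1.53%), scaffold185, with 4 of 94 (4.26%), and scaffold371, with 4 of 119 (3.36%). These sequences were picked for their counts. Within 100 kb of each other lay 9 pairs, of 18 members, and no such count was made for other genes. Of the pairs, 1 had no gene between its members. That pair was AnMG0207145010, second by rank, and AnMG0207826500, placed 30208 bases apart on scaffold643. AnMG0207826500 had 6.00, 5.81 and 4.81 CPM in ROSpse_elpse and 7.21 to 16.6 CPM, median 9.07, in the others, and so was separated much less than its neighbour.

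The closest pair was AnMG0008685400, the member highest in TPM, and AnMG0008686000, 14487 bases apart on scaffold1600 with 2 genes between them. AnMG0008686000 had 15.0, 13.8 and 15.9 CPM in ROSpse_elpse and 17.8 to 47.9 CPM, median 24.6, in the others. AnMG0807615700 and AnMG0807614900, ranked 3 and 13, lay 28521 bases apart on scaffold921, also with 2 genes between them. AnMG0005452500 and AnMG0005450000 lay 75893 bases apart on scaffold174 with 12 genes between them. AnMG0005452500 had 21.6, 17.5 and 17.0 CPM in ROSpse_elpse and 23.0 to 45.0 CPM, median 33.4, in the others.

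Genes near members were not lower as a class. The 1675 genes within 100 kb of a member that are not members themselves had a median log2 difference, ROSpse_elpse minus the 18 others, of -0.01, with quartiles of -0.28 and 0.23. Over the 20674 genes that are not members the median was -0.00, with quartiles of -0.25 and 0.25. Of the neighbours, 3 (0.179%) had all ROSpse_elpse libraries below the 18 others, against 63 (0.305%) of all genes outside the list, and these shares exclude the members by construction.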

How the data were processed

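Corolla RNA of 21 plants was read as 50 bp single-end fragments. Cutadapt 1.16, Salmon 0.9.1 and DESeq2 are listed, without their roles, per the submitters' processing notes. For every library the authors deposited a Salmon table of 51926 transcripts, which holds expected counts (estimated reads, not scaled) and TPM (scaled for length and depth). The deposited lengths only describe transcripts. Placements carry a score, which the authors deposited with them and which here only picked the best placement per gene; coordinates are 1-based on that file's assembly. The use of strand is not given in the sources used here.

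Reads were summed per gene and rounded. Tests were edgeR 4.0.16 quasi-likelihood F tests in R 4.3.3 (limma 3.58.1) with TMM and a mean for each genotype over all 21 libraries, for genes at 0.5 CPM or more in 3 or more; the SE is |log2 fold change| / sqrt(F). The procedure was tested on simulated data. Alternatives were DESeq2 1.42.0, its size factors, no filter, the library series or plant family as terms, only the genotypes compared and each library left out; for the contrasts, the middle series alone was chosen after seeing the data. Replicates are separate plants, so p-values measure the spread between plants, most of which share a family within their genotype.

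Members, lists and tests were chosen with earlier results of these data known. By rule the text names the 12 highest ranks, 3 genes on each side of the limit, the 3 highest in TPM, the 4 nearest pairs within 100 kb, and up to 2 called rises and 2 called falls per contrast. For any other gene the text states that it was picked with its values in view.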

Additional observations from a re-analysis of the deposited data

How the results depend on the processing

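Of the 150 members, 143 were in the list rebuilt with DESeq2 size factors, 147 with an offset of 1 and 143 with at least 2 CPM, against 99 with no scaling factor and 28 in the middle library series alone, where 1807 genes were eligible from fewer libraries. Leaving out 1 library returned 44 to 147. Members called in ROSji7_elji7 against rosdor_eldor were 0, with 1 under DESeq2 and 0 to 1 when a library was left out. In ROSji7_ELstr against ROSji7_elji7 the count was 1, with 2 under DESeq2, 0 in the middle series alone, 0 with only the genotypes compared and 0 to 4 when a library was left out. In ROSpse_ELstr against rosstr_ELstr it was 0, with 5 under DESeq2, 4 with the series as a term and 1 with only the genotypes compared. In rosrec_elpse against rosdor_eldor it was 7, with 11 under DESeq2, 4 with the series as a term, 4 with no filter, 0 with only the genotypes compared and 2 to 8 when a library was left out; the middle series holds no rosrec_elpse library, so that fit was not possible. In ROSpse_ELstr against ROSji7_ELstr it was 0, with 4 under DESeq2, 1 with the series as a term and 1 with only the genotypes compared. In rosstr_ELstr against rosdor_eldor it was 0 under every alternative run, plant family as a term included. With that term the contrast rests on 1 rosdor_eldor plant. Shares of all genes called are given above for the main and DESeq2 fits and for some fits with the series as a term. For the other alternatives they are not given, so those counts cannot be set against all genes. The cause of these moves was not tested. Fits of the genotypes compared and of the middle series also hold fewer libraries. No paired analysis was run. The labels give no replicate numbers, and each family shared between genotypes holds only 1 rosdor_eldor plant. Depth limits the members with few reads, and the rosdor_eldor plant of family A181 is also the shallowest library.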
